A study of Homo sapiens with 9 samples.

Results

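The genes described here are 10 genes of the NF-kB system: the transcription factor subunits RELA, NFKB1, RELB and NFKB2, the inhibitors NFKBIA, NFKBIB and NFKBIE, and the feedback genes TNFAIP3, TNIP1 and BIRC3. They were chosen by name, for what their products do, but with earlier results of these data known, so the choice was not blind. All 10 were among the 22295 entries of the expression table, and all 10 passed the filter on low values, which left 15551 entries for testing. The table holds 9 RNA-seq libraries of U251, an established human glioblastoma cell line, with 3 libraries in each of 3 groups. In sh-Luci-3d, called the control below, the cells had been infected for 3 days with a lentivirus carrying a hairpin against luciferase. In sh-Ptbp1-3d and sh-Ptbp1-7d they had been infected for 3 or 7 days with a lentivirus carrying a hairpin against PTBP1, which encodes an RNA-binding repressor of neuronal splicing; these are called day 3 and day 7 of the knockdown. Every group therefore carried a lentiviral vector with the M-cherry marker. The study's culture methods moved cells to a neuronal induction medium with forskolin and dorsomorphin from 2 days after infection. Its account of the RNA-seq names no medium, so that medium is taken to apply to every group. A single PTBP1 hairpin was used, and no sh-Luci library of day 7 was analysed here, so the time after infection, the time in the medium and the duration of the knockdown cannot be told apart in any comparison with sh-Ptbp1-7d.

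NF-kB proteins bind DNA as dimers. In the canonical route, inhibitor proteins of the IkB family hold dimers such as RELA with the processed NFKB1 product in the cytoplasm until a kinase complex triggers their degradation, while in the noncanonical route the NFKB2 precursor, which itself retains RELB, is processed to release RELB dimers. Several of the genes that NF-kB activates encode its own subunits and inhibitors, so their transcripts are commonly read as markers of feedback. TNFAIP3 is a ubiquitin-editing enzyme that dampens signalling, TNIP1 is its ubiquitin-binding partner, and BIRC3 is a ubiquitin ligase of the TNF receptor complexes. NF-kB activity is known in glioblastoma in connection with mesenchymal gene expression and inflammatory signalling.

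The promoters are shown because members of this system are known targets of the factor they encode or restrain. RefSeq promoter windows of 300 bases, 250 before and 50 after a transcript start on build GRCh38.p14, were available for 8 of the 10 genes, with 14 windows in all, and those of RELB and NFKBIE are not shown. The κB consensus, a motif of 10 letters with several ambiguous positions, was searched on both strands. It was found in 8 of the 14 windows and in 7 of the 8 genes, compared with 5.91% of all 35116 windows and 7.09% of all 27305 genes in the table. Since known targets of NF-kB are among these genes by choice, a higher share follows from the choice and is no result. These genes also had more windows per gene than the table as a whole. Capitals mark the matched letters, and every sequence is written 5′ to 3′ on the strand of the gene. Where annotated exons cover most of a stretch, at most 30 bases are shown.

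NFKBIA has a single start, and its bases from -250 to -1 (chr14:35404750-35404999 on the minus strand) hold 1 match.
NFKBIA: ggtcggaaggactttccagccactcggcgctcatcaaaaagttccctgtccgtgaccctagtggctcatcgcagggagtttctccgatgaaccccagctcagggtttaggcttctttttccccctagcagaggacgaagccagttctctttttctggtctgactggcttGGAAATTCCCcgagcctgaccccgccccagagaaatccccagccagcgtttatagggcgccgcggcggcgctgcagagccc
NFKB2 has matches at start 2 (chr10:102394462-102394490 on the plus strand) and start 3 (chr10:102395455-102395693 on the plus strand). The run of 11 capitals at start 2 is 2 overlapping matches, 1 of them palindromic and so found on both strands, and a further match lies outside the stretch shown.
NFKB2 start 2: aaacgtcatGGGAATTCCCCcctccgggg
NFKB2 start 3: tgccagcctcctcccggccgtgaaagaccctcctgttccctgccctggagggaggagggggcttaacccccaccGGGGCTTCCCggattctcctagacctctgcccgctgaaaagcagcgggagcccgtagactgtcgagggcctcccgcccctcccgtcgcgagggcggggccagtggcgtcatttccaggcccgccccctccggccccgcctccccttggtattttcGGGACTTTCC
BIRC3 (chr11:102317234-102317449 on the plus strand) and TNFAIP3 (chr6:137867188-137867217 on the plus strand) each have 2 separate matches, all on the opposite strand.
BIRC3: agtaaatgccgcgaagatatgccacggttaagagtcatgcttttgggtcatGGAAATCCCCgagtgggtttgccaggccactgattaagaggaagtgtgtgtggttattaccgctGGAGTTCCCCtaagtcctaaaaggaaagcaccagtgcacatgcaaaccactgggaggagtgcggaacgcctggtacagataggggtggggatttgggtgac
TNFAIP3: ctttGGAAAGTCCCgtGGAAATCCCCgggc
NFKB1 (chr4:102501300-102501329 on the plus strand), NFKBIB at start 2 (chr19:38899863-38899951 on the plus strand) and TNIP1 at start 2 (chr5:151081057-151081086 on the minus strand) have 1 site each, and in NFKBIB the 11 capitals are a pair of overlapping matches on opposite strands.
NFKB1 start 1: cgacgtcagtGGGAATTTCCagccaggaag
NFKBIB start 2: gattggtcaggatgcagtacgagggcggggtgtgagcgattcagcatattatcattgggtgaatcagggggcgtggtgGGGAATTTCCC
TNIP1 start 2: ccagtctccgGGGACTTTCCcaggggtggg

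Neither of the 2 RELA windows held a match, which says only that these letters are not in those windows. A match is a description of the sequence and was not measured as a bound site.

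Expression was deposited as FPKM, a fragment count divided by transcript length and by the mapped fragments of its library, so levels of different genes can be set side by side per length. The sequencing depth behind the values is unknown, since low values did not fall in steps of whole reads, and no counting interval can be given. Differences are log2 fold changes of FPKM + 0.1 from limma, a linear model with moderated variances, with Benjamini-Hochberg adjusted p over all 15551 entries, and the scale understates changes of low genes such as BIRC3. The thresholds were a fold change above 2 with a false discovery rate (FDR) below 0.05 for the comparison at 3 days and below 0.01 for comparisons with sh-Ptbp1-7d. The smallest two-sided p that an exact permutation test of 3 libraries against 3 can reach is 0.1. The labels do not say that replicates were separate cultures, so the p-values measure the spread between these libraries, which may be technical. In a bulk sample fewer cells of a type and less RNA per cell cannot be told apart.

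FPKM sums per library ranged from 367412 to 404922. PTBP1 was at 111, 112 and 124 FPKM in the control libraries, 66.2, 64.4 and 61.0 FPKM at day 3 of the knockdown and 49.7, 50.7 and 51.0 FPKM at day 7, with no overlap between the groups. Its log2 fold change at 3 days was -0.85 (SE 0.073, limma adjusted p = 0.00314), short of a fold of 2, and the adjusted p was 0.0519 when only these 2 groups were fitted and 0.0579 without sh-Ptbp1-3d replicate 3. Replicate 3 of sh-Luci-3d stood apart from the other 2, at -17.7 on the second principal component against 30.4 and 27.2. Replicate 3 of sh-Ptbp1-3d was at -31.1 on it against -7.09 and -2.61, and it held STMN2 at 11.5 FPKM and DCX at 2.14 FPKM, where the other 8 libraries were at 0 for STMN2 and at most 0.0346 FPKM for DCX. VIM, SOX2, NES, CD44 and EGFR, listed as glioma cell line markers, were above 1 FPKM in every group, while the means of GFAP, OLIG2 and S100B were below 1 FPKM in every group. Of 10 immune and microglial markers, 9 had group means below 1 FPKM in every group, and CD3E, AIF1 and TYROBP were listed at 0 in all 9 libraries.

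The levels of the 10 genes spanned a wide range in the control cells. TNIP1 was the highest at 38.5 ± 2.24 FPKM (SD, n = 3), followed by RELA at 30.4 ± 0.721 FPKM, and BIRC3 was the lowest at 0.795 ± 0.171 FPKM. The order in sh-Luci-3d was TNIP1, RELA, NFKB2, NFKBIB, NFKBIA, NFKB1, RELB, NFKBIE, TNFAIP3 and BIRC3, in which the libraries of NFKB2 and NFKBIB overlapped, as did those of NFKBIA and NFKB1. The same order was found in sh-Ptbp1-3d, where only NFKBIA and NFKB1 overlapped among neighbours. In sh-Ptbp1-7d, RELA, TNIP1 and NFKB2 led with overlapping neighbours, at 35.1 ± 1.41, 33.8 ± 0.978 and 33.1 ± 0.696 FPKM (SD, n = 3). RELB moved from rank 7 to rank 4 in that order, ahead of NFKBIB, NFKB1 and NFKBIA.

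**Figure D1:**
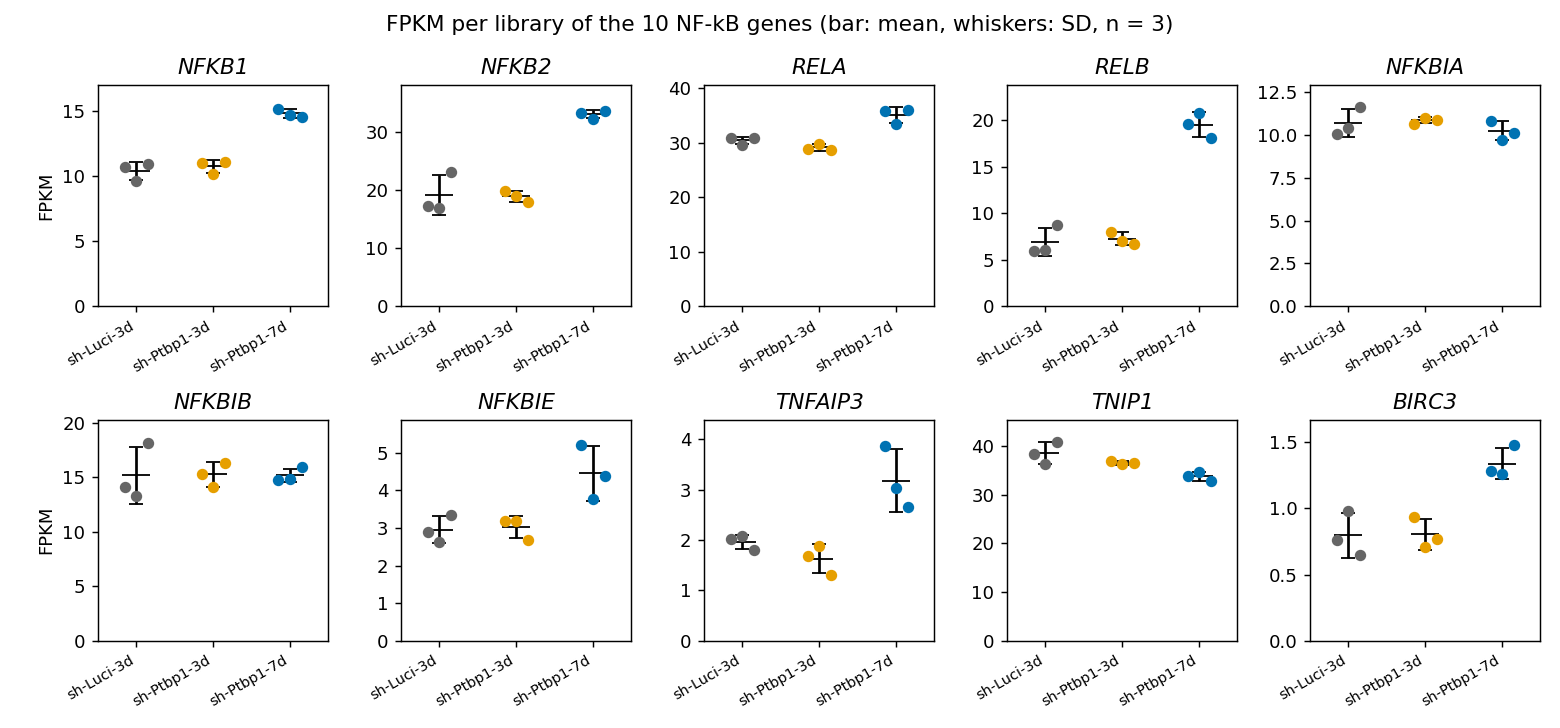
FPKM (linear axis from 0) of each of the 10 genes in each library, with points for libraries, bars for means and whiskers for the SD of 3 libraries per group. The sh-Ptbp1-7d points lie above all others for NFKB1, NFKB2, RELA, RELB, NFKBIE, TNFAIP3 and BIRC3, and below all others for TNIP1.

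The comparison of sh-Ptbp1-3d with sh-Luci-3d asks what the knockdown changed at one time point. None of the 10 genes passed the thresholds or the FDR alone in limma, and 0 had an unadjusted p below 0.05. Among all entries tested, 0.0129% passed both thresholds in limma, 0.0322% passed the FDR alone and 7.24% had an unadjusted p below 0.05. The groups overlapped for each of the 10 genes, whereas 10.8% of all entries had no overlap. Log2 fold changes ran from -0.27 (TNFAIP3, 95% interval -0.66 to 0.12, adjusted p = 0.785) to 0.08 (RELB, 95% interval -0.23 to 0.40, adjusted p = 0.917), with a median of 0.019 against 0.00995 over all entries tested. For RELA, NFKB1, NFKBIA and TNIP1 the intervals lay within -0.23 and 0.24. Part of the spread of RELB and NFKB2 came with 1 library: in sh-Luci-3d replicate 3, RELB was at 8.68 FPKM against 5.96 and 6.08, and NFKB2 at 23.1 FPKM against 17.3 and 17.0. Without it the log2 fold changes were 0.26 for RELB (limma adjusted p = 0.145) and 0.14 for NFKB2 (limma adjusted p = 0.21), and entries past both thresholds numbered 57 in place of 2.

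From day 3 to day 7 of the knockdown, the 4 subunit genes and TNFAIP3 were higher at the FDR alone, while none of the 3 inhibitor genes passed. The calls do not separate subunits from inhibitors by size. The log2 fold change of NFKBIE (0.53, limma adjusted p = 0.0123) exceeded those of NFKB1 (0.46) and RELA (0.27). RELB alone passed both thresholds, 1 of 10 genes higher and 0 lower, against 8.31% higher and 5.9% lower among all entries tested. At the FDR alone, 5 of 10 genes were higher and 0 lower, against 20.3% and 15.5% of all entries. An unadjusted p below 0.05 was found for 7 of 10 genes and for 56.3% of all entries. Without sh-Ptbp1-3d replicate 3, RELB still passed both thresholds (log2 fold change 1.36, limma adjusted p = 0.000337), and 4 genes, RELB included, passed the FDR in place of 5. RELA was the gene lost (limma adjusted p = 0.0217). In 7 genes every day 7 library was above every day 3 library of the knockdown and in 1 gene below, against 35.3% and 27% of all entries. The median log2 fold change of the 10 genes was 0.50, against 0.09 over all entries tested.

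**Figure D2:**
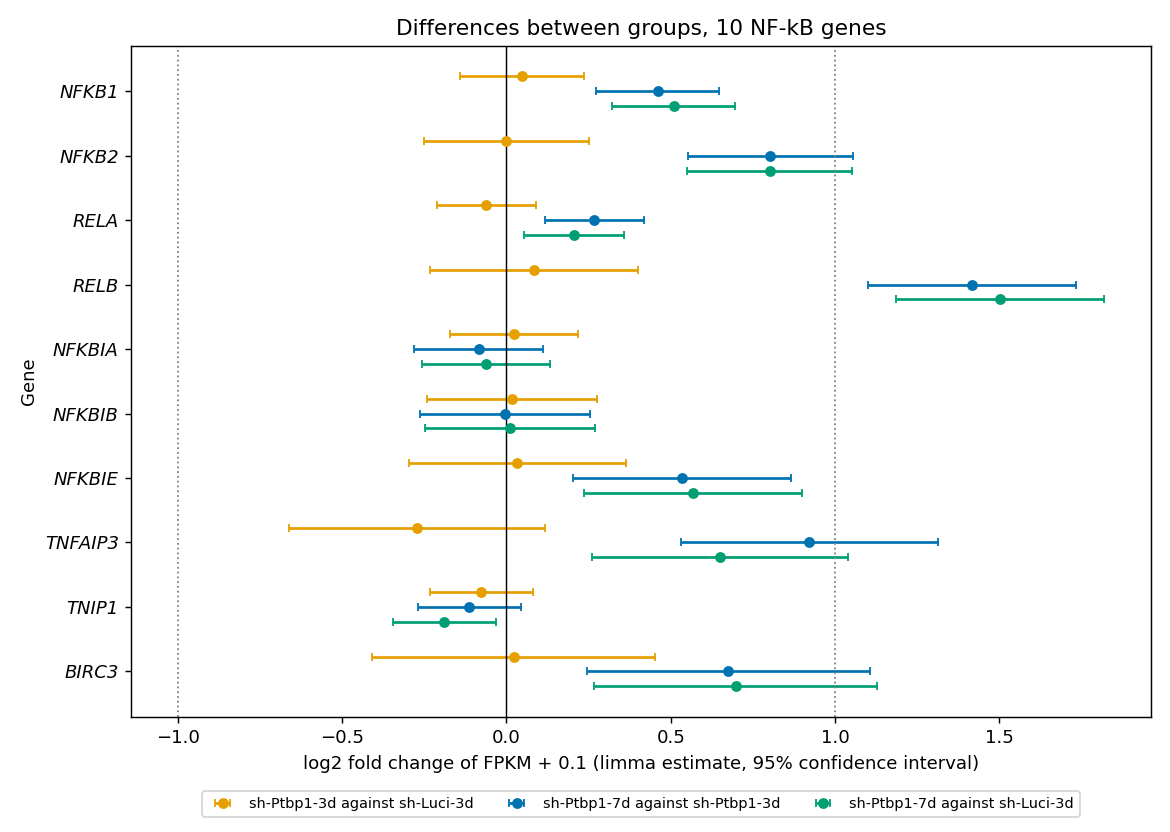
Log2 fold change of FPKM + 0.1 (points) with its 95% confidence interval from limma (lines) for the 10 genes in 3 comparisons, which share libraries. Dotted lines mark a fold change of 2, which the RELB estimates of 1.42 and 1.502 exceed, and the intervals of NFKBIA and NFKBIB contain 0 in each comparison.

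Among the subunits, RELB had the largest difference. RELB, the partner of the processed NFKB2 product in the noncanonical route, lies on chromosome 19 from 45001430 to 45038198 (plus strand, GRCh38). It was at 5.96, 6.08 and 8.68 FPKM in the control libraries, 8.01, 7.04 and 6.68 FPKM at day 3 of the knockdown and 19.6, 20.8 and 18.1 FPKM at day 7. The 3 libraries of sh-Ptbp1-7d all stood above the highest of the other 6, and the 2 groups of day 3 overlapped. Its mean rose 2.69-fold between the days of the knockdown, a log2 fold change of 1.42 (SE 0.143, 95% interval 1.101 to 1.73, limma adjusted p = 1.6e-05). NFKB2, on chromosome 10 from 102394110 to 102402529 (plus strand), encodes the precursor that retains RELB. It was at 17.3, 17.0 and 23.1 FPKM in the control libraries, 19.9, 19.0 and 18.0 FPKM at day 3 of the knockdown and 33.4, 32.3 and 33.6 FPKM at day 7. Again no sh-Ptbp1-7d library overlapped with the rest, and the rise was 1.75-fold (log2 fold change 0.80, SE 0.113, limma adjusted p = 0.000182). Both genes passed the FDR in each of 20 alternative analyses.

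The estimates for the canonical subunits were smaller. NFKB1, on chromosome 4 from 102501329 to 102617302 (plus strand), was at 10.6, 9.56 and 10.9 FPKM in the control libraries, 10.96, 10.1 and 11.1 FPKM at day 3 of the knockdown and 15.1, 14.7 and 14.5 FPKM at day 7. The sh-Ptbp1-7d libraries were again the 3 highest, with a rise of 1.38-fold (log2 fold change 0.46, SE 0.085, limma adjusted p = 0.00109) that passed the FDR in each of the 20 alternatives. RELA, the main activating subunit of the canonical route, lies on chromosome 11 from 65653596 to 65663094 (minus strand). It was at 30.8, 29.6 and 30.9 FPKM in the control libraries, 28.9, 29.8 and 28.7 FPKM at day 3 of the knockdown and 35.8, 33.5 and 36.1 FPKM at day 7, so that the day 7 libraries lay above the rest, although the difference was the smallest among the subunits. The control and day 3 libraries overlapped. The log2 fold change of RELA was 0.27 (SE 0.068, limma adjusted p = 0.00766), or 0.18 above the median of all entries. This call held in 9 of 20 alternatives, with limma adjusted p from 0.000916 to 0.0352. It was lost under median-ratio scaling (0.0352), without the variance trend (0.0180), and without any single library of sh-Ptbp1-3d or sh-Ptbp1-7d (0.0137 to 0.0311) or sh-Luci-3d replicate 1 (0.0123) or 2 (0.0111).

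None of the 3 inhibitor genes passed the test between the days of the knockdown. NFKBIA encodes IkB alpha, the inhibitor that NF-kB classically re-induces, and lies on chromosome 14 from 35401511 to 35404749 (minus strand). It was at 10.04, 10.4 and 11.7 FPKM in the control libraries, 10.7, 10.996 and 10.9 FPKM at day 3 of the knockdown and 10.8, 9.74 and 10.1 FPKM at day 7. The 3 groups overlapped, and the log2 fold change between day 3 and day 7 of the knockdown was -0.085 (SE 0.088, 95% interval -0.28 to 0.11, limma adjusted p = 0.453), with a value of 0.016 after scaling to TPM. NFKBIB, which encodes IkB beta, lies on chromosome 19 from 38899700 to 38908893 (plus strand) and shares 40 exonic bases with SIRT2 on the opposite strand, so that reads in those bases are uncertain, since strandedness is not given. It was at 14.1, 13.3 and 18.2 FPKM in the control libraries, 15.3, 14.1 and 16.4 FPKM at day 3 of the knockdown and 14.8, 14.9 and 15.9 FPKM at day 7. The groups overlapped here too, with a log2 fold change of -0.0053 (95% interval -0.26 to 0.25, limma adjusted p = 0.975) that took the value 0.096 after scaling to TPM. The intervals of both genes exclude a fold change of 2 in either direction.

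NFKBIE, which encodes IkB epsilon, lies on chromosome 6 from 44258166 to 44265788 (minus strand) and was the least abundant of the inhibitors. It was at 2.90, 2.63 and 3.35 FPKM in the control libraries, 3.18, 3.20 and 2.69 FPKM at day 3 of the knockdown and 5.21, 3.77 and 4.37 FPKM at day 7. The sh-Ptbp1-7d libraries lay above the rest, but the log2 fold change of 0.53 from sh-Ptbp1-3d (SE 0.150, 95% interval 0.20 to 0.87) did not pass the FDR, with a limma adjusted p of 0.0123. It passed in 3 of 20 alternatives, which were TPM (0.00392) and the fits without sh-Luci-3d replicate 3 (0.00790) or sh-Ptbp1-7d replicate 2 (0.00974).

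Among the feedback genes of the ubiquitin system, TNFAIP3 rose and its partner TNIP1 did not pass the test. TNFAIP3, on chromosome 6 from 137867188 to 137883312 (plus strand), shares 95 exonic bases with the antisense gene AL357060.1, and reads in those bases cannot be assigned without strand. It was at 2.02, 2.07 and 1.81 FPKM in the control libraries, 1.68, 1.89 and 1.31 FPKM at day 3 of the knockdown and 3.86, 3.03 and 2.65 FPKM at day 7. Every sh-Ptbp1-7d library exceeded every other library, and the sh-Ptbp1-7d mean was 1.95 times that of sh-Ptbp1-3d (log2 fold change 0.92, SE 0.176, limma adjusted p = 0.00139). It passed the FDR in all 20 alternatives and the fold threshold in 3 of them, with log2 fold changes of 1.05 under TPM, 1.03 without sh-Ptbp1-3d replicate 2 and 1.04 without sh-Ptbp1-7d replicate 3. TNIP1, on chromosome 5 from 151029945 to 151093577 (minus strand), was at 38.4, 36.4 and 40.9 FPKM in the control libraries, 37.0, 36.2 and 36.4 FPKM at day 3 of the knockdown and 33.9, 34.7 and 32.7 FPKM at day 7. These values were the only ones among the 10 genes with all sh-Ptbp1-7d libraries below the rest, yet the log2 fold change of -0.11 from sh-Ptbp1-3d (SE 0.071, limma adjusted p = 0.211) did not pass the test.

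BIRC3, the ubiquitin ligase, lies on chromosome 11 from 102317450 to 102339403 (plus strand) and had the lowest level of the 10 genes in every group. It was at 0.759, 0.981 and 0.644 FPKM in the control libraries, 0.932, 0.707 and 0.769 FPKM at day 3 of the knockdown and 1.28, 1.26 and 1.47 FPKM at day 7. The sh-Ptbp1-7d libraries were above all others, but the log2 fold change of 0.68 (SE 0.195, 95% interval 0.25 to 1.11, limma adjusted p = 0.0144) did not pass the FDR. It passed in 4 of the 19 alternatives that kept the gene, among them the fit without sh-Luci-3d replicate 3 (0.00923), and the adjusted p ranged from 0.00801 to 0.0595.

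The balance among the genes can be read as ratios of FPKM within a library, which do not depend on the scaling of the library, and these are given as descriptions with no test. The ratio of RELB to RELA was 0.193, 0.206 and 0.281 in the control libraries, 0.277, 0.236 and 0.233 at day 3 of the knockdown and 0.548, 0.620 and 0.501 at day 7. The ratio of NFKB2 to NFKB1, the noncanonical to the canonical precursor, was 1.84 ± 0.255 in the control, with replicate 3 at 2.12, 1.77 ± 0.129 at day 3 and 2.24 ± 0.0662 at day 7 of the knockdown (SD, n = 3). In both ratios the sh-Ptbp1-7d libraries lay above the other 6. The 4 subunit genes summed to 66.8 ± 5.99 FPKM in the control, 66.0 ± 1.70 FPKM at day 3 of the knockdown and 102 ± 1.32 FPKM at day 7 (SD, n = 3). The 3 inhibitor genes summed to 28.9 ± 3.75, 29.1 ± 0.840 and 29.9 ± 1.31 FPKM in the same groups. The ratio of these 2 sums stood at 0.431 ± 0.0174, 0.442 ± 0.0206 and 0.291 ± 0.00972 (SD, n = 3), with the sh-Ptbp1-7d libraries below all others. It depends on the grouping, since NFKB2 is counted as a subunit although its precursor retains RELB. NFKB2 went from 18.95 FPKM at day 3 to 33.1 FPKM at day 7 of the knockdown. The ratio is therefore no measure of the inhibition of NF-kB. Within the inhibitors, NFKBIE relative to NFKBIA was 0.276 ± 0.0209 in the control, 0.279 ± 0.0278 at day 3 and 0.433 ± 0.0467 at day 7 of the knockdown (SD, n = 3).

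**Figure D3:**
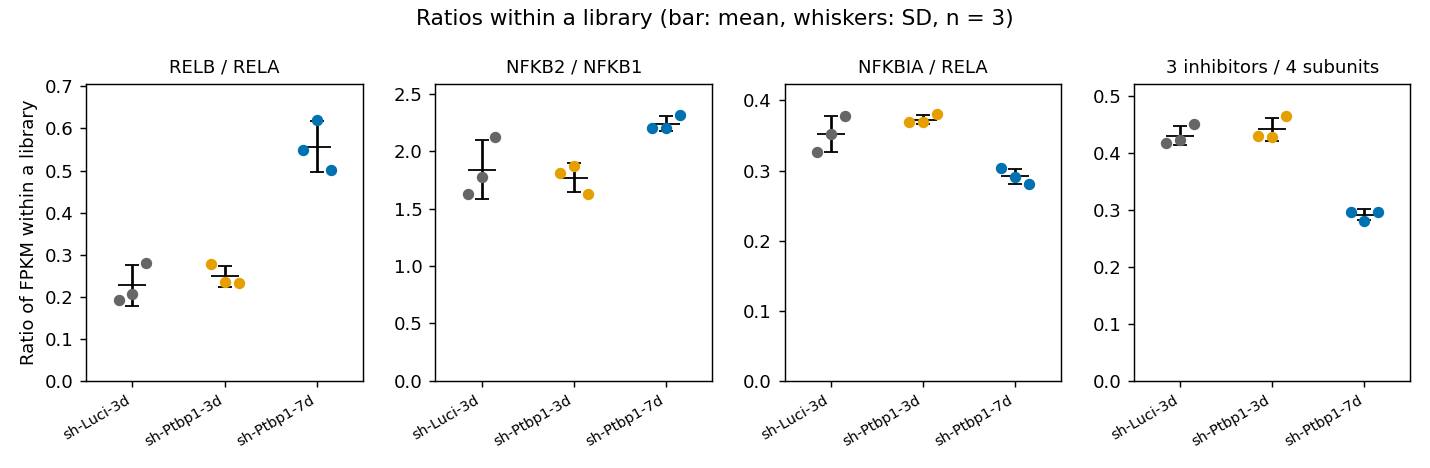
Ratios of FPKM within each library (linear axes from 0), with points for libraries, bars for means and whiskers for the SD of 3 libraries per group. The sh-Ptbp1-7d points lie above the rest for RELB to RELA and NFKB2 to NFKB1, and below the rest for NFKBIA to RELA. They also lie below the rest for the sum of 3 inhibitors to the sum of 4 subunits (0.291 against 0.431 and 0.442), with NFKB2 counted as a subunit.

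The comparison of sh-Ptbp1-7d with sh-Luci-3d uses the same sh-Ptbp1-7d libraries and is not independent of the one above. RELB again alone passed both thresholds, with a log2 fold change of 1.502 (SE 0.143, limma adjusted p = 1.03e-05), which is 1 of 10 genes higher and 0 lower against 8.93% and 5.68% of all entries. At the FDR alone, 4 genes were higher and 0 lower, against 20.6% and 15% of all entries. These were RELB, NFKB2 (log2 fold change 0.80, limma adjusted p = 0.00018), NFKB1 (0.51, limma adjusted p = 0.000551) and NFKBIE (0.57, limma adjusted p = 0.00904). The NFKBIE call held in 7 of 20 alternatives, and among the fits that left out 1 library it held only without sh-Luci-3d replicate 3 (0.00509) or sh-Ptbp1-7d replicate 2 (0.00745), being 0.0133 to 0.0419 without any other. The log2 fold changes of TNFAIP3 (0.65, limma adjusted p = 0.0106), BIRC3 (0.70, limma adjusted p = 0.0123) and RELA (0.21, limma adjusted p = 0.0276) did not pass. TNIP1 was lower (-0.19, limma adjusted p = 0.0462) and did not pass either. Nor did NFKBIA and NFKBIB. After scaling to TPM, 7 of the 10 genes passed the FDR. That scaling also moved the median log2 fold change of all entries to 0.18, from 0.099. Entries past both thresholds numbered 2391 with TPM, against 2271, and the share of all entries at the FDR alone is not given here.

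The promoter matches were set beside these differences. Matches lay in windows of NFKB1, NFKB2 and TNFAIP3, which passed the FDR between the days of the knockdown. They also lay in windows of NFKBIA, NFKBIB, TNIP1 and BIRC3, which did not pass. RELA, which also passed, had no match in its windows. These calls do not order the genes by size. The log2 fold change of BIRC3 (0.68) exceeded those of NFKB1 (0.46) and RELA (0.27). RELB, with the largest estimate, and NFKBIE had no window to search. Whether the matches bear on the differences was not tested. The 250 bases before the NFKBIA start hold 1 match at -81, and the NFKBIA libraries of the 3 groups overlapped.

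Other genes of the pathway, 97 in 4 lists, were examined in the same fit, and 82 passed the filter on low values. At 3 days 0 of the 82 passed the thresholds in limma, against 0.0129% of all entries. An unadjusted p below 0.05 in limma was found for 7, against 7.24% of all entries. Between the days of the knockdown, 12 were higher and 5 lower past both thresholds, against 8.31% and 5.9% of all entries. At the FDR alone 24 were higher and 12 lower, against 20.3% and 15.5%. The median log2 fold change was 0.15, against 0.09. The share of the 82 past both thresholds, 20.7%, stood beside 14.2% of all entries tested. Of the 25 adaptors and kinases that connect receptors to the inhibitors, 0 passed both thresholds in limma. At the FDR alone 4 were higher and 3 lower, and 16 had an unadjusted p below 0.05 in limma, against 56.3% of all entries. Ligand levels varied widely, with TNF listed at 0 in 6 of the 9 libraries and at most at 0.0537 FPKM, while TNFSF12, the TWEAK ligand, averaged 26.3 FPKM at day 3 and 22.5 FPKM at day 7 of the knockdown. Among 15 ligands and receptors tested, 3 rose and 1 fell past both thresholds, a share of 26.7% against 14.2% of all entries.

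TLR3, the endosomal receptor for double-stranded RNA, was at 2.14, 3.29 and 2.13 FPKM in the control libraries, 1.74, 2.04 and 2.14 FPKM at day 3 of the knockdown and 13.2, 13.3 and 12.8 FPKM at day 7. It rose by a log2 fold change of 2.68 from sh-Ptbp1-3d (SE 0.164, limma adjusted p = 4.08e-07), with no overlap. IL1RAP, the co-receptor of the interleukin-1 receptor, rose by 1.02 (SE 0.142, limma adjusted p = 0.00016). IL1R1, the receptor itself, named here after its values were seen, rose by 1.01 (limma adjusted p = 0.00858), from 0.472 to 1.05 FPKM. TNFRSF12A, the TWEAK receptor, fell from 65.5 to 30.4 FPKM, a log2 fold change of -1.10 (SE 0.153, limma adjusted p = 0.000158).

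Of 18 other subunits, atypical inhibitors and ubiquitin regulators tested, 2 rose past both thresholds and 0 fell. This share of 11.1% was below the 14.2% of all entries. BCL3, an atypical IkB protein that acts in the nucleus with NFKB1 and NFKB2 products, was at 18.6, 17.9 and 22.5 FPKM in the control libraries, 21.7, 21.8 and 19.9 FPKM at day 3 of the knockdown and 41.7, 42.3 and 49.0 FPKM at day 7, a log2 fold change of 1.06 between the last 2 groups (SE 0.104, limma adjusted p = 1.26e-05). NLRC5, best known as an activator of MHC class I genes, rose from 9.97 to 45.1 FPKM, a log2 fold change of 2.16 (SE 0.147, limma adjusted p = 8.92e-07).

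Among 24 other target genes tested, 7 rose and 4 fell past both thresholds, a share of 45.8% against 14.2% of all entries. The chemokine gene CCL5 was at 0.290, 0.359 and 0.155 FPKM at day 3 and at 5.64, 7.42 and 5.45 FPKM at day 7 of the knockdown, a log2 fold change of 4.12 (SE 0.249, limma adjusted p = 3.83e-07). IRF1, a transcription factor induced by interferon and by NF-kB, rose from 9.92 to 37.9 FPKM, by 1.93 on the log2 scale (SE 0.133, limma adjusted p = 9.81e-07). The cytokine gene IL6 rose from 1.74 to 5.43 FPKM, a log2 fold change of 1.58 (SE 0.235, limma adjusted p = 0.000258). The 4 that fell, named after their values were seen, were the adhesion receptor CD44 (-1.41 on the log2 scale), the urokinase gene PLAU (-1.30), the mitochondrial dismutase SOD2 (-1.003) and the cytokine gene CSF2, which was listed at 0 in 2 of 3 sh-Ptbp1-7d libraries.

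**Figure D4:**
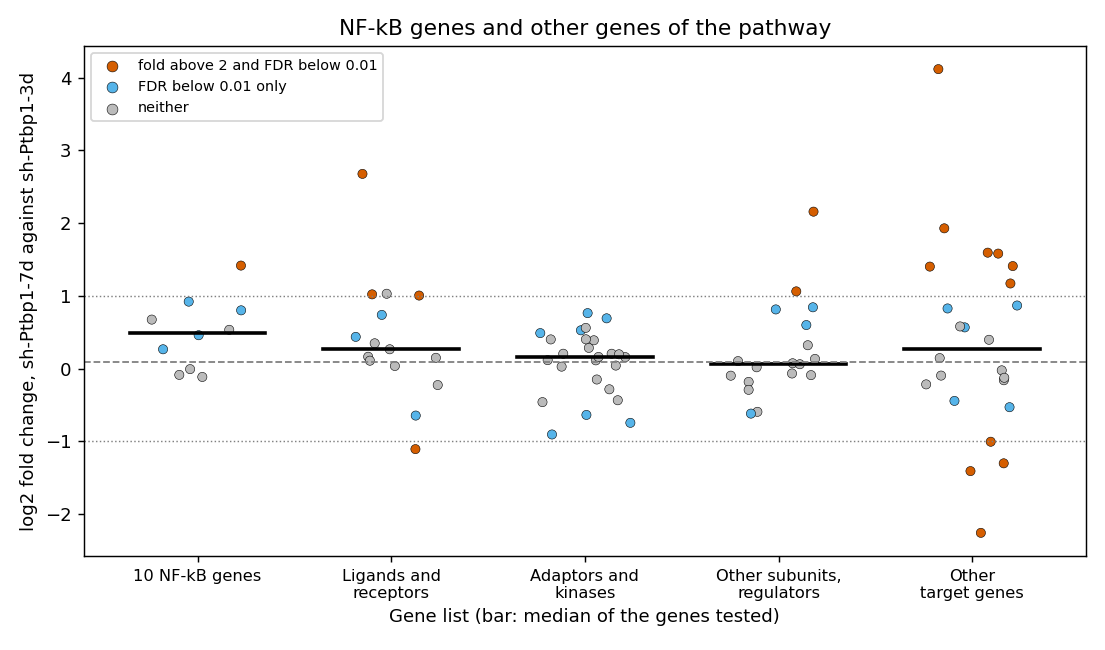
Log2 fold change of FPKM + 0.1, sh-Ptbp1-7d against sh-Ptbp1-3d, for the 10 NF-kB genes and the tested genes of 4 pathway lists, with bars for list medians, a dashed line for the median of all entries and dotted lines at a fold change of 2. The 25 adaptors and kinases lie between the dotted lines. Of the 24 other target genes 11 lie beyond them with the FDR passed, 7 above and 4 below, against 14.2% of all entries.

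Several marker lists moved together with the difference between the days of the knockdown. Of 24 interferon-stimulated genes in the table, 22 rose past both thresholds and 0 fell, against 8.31% and 5.9% of all entries. The summed FPKM of these 24 genes was 2367 to 3808 in the control, 2916 to 3331 at day 3 of the knockdown and 19435 to 20194 at day 7. Several of the genes above, such as IRF1, CCL5, TLR3 and NLRC5, are also known to respond to interferon. Of 8 glioma cell line markers tested, 1 rose and 2 fell past both thresholds, a share of 37.5% against 14.2% of all entries. S100B rose from 0.115 to 0.797 FPKM, VIM fell from 4381 to 1169 FPKM and CD44 fell from 166 to 62.3 FPKM. SOX2 was at 125 and 145 FPKM and did not pass the test (limma adjusted p = 0.0733). Of 5 neuronal markers tested, 0 rose and 1 fell past both thresholds, a share of 20% against 14.2% of all entries. The summed FPKM of these 5 with the untested RBFOX3 was 333 to 352 at day 3 and 153 to 161 at day 7. TUBB3 fell from 317 to 118 FPKM, and MAP2 rose from 20.3 to 38.9 FPKM at the FDR alone (limma adjusted p = 0.00058). The summed FPKM of the 10 immune and microglial markers was 10.98 to 11.5 at day 3 of the knockdown and 16.2 to 19.1 at day 7, of which the lysosomal gene CD68 alone made up 10.5 and 16.3 FPKM on average. The 4 endothelial markers summed to at most 0.906 FPKM in any library of the 3 groups. The part of these changes in the values of the 10 genes was not tested.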

How the data were processed

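U251 cells gave 9 RNA-seq libraries, which were grouped by their labels into sh-Luci-3d (3), sh-Ptbp1-3d (3) and sh-Ptbp1-7d (3). The authors extracted total RNA, sequenced it on Illumina HiSeq, filtered the reads and deposited FPKM values. HISAT2 and GRCh38 are named in the submitters' processing notes, and whether libraries kept strand is not given in the sources used here. The authors also deposited positions of 2363 assembled loci, values of another kind, of which 0 overlapped 1 of the 10 genes. The other 19932 entries were gene symbols, 97.6% of them in GENCODE v29, which gave the gene positions.

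From the deposited FPKM values, log2(FPKM + 0.1) was computed for entries averaging 0.1 FPKM or more. The 3 groups entered 1 limma model (version 3.58.1, R 4.3.3) with a variance trend, and the Benjamini-Hochberg adjustment ran over 15551 entries. The thresholds follow the study's methods, and the FDR of 0.01 also served for the day 7 knockdown against the control. The fit was checked on simulated data. Promoter windows came from RefSeq (GRCh38.p14). Python 3.11.15 with matplotlib 3.10.9 drew the figures.

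Named were all 10 genes, PTBP1 and, from each pathway list, up to 3 genes past both thresholds between the days of the knockdown, averaging 1 FPKM or more and without overlap, by size of change. TNF, TNFSF12, IL1R1, CD44, PLAU, SOD2, CSF2 and the marker genes were named outside this rule. The members and lists were chosen with earlier results of these data known. The labels do not say whether replicate numbers pair the libraries, and the main fit used no pairing. Same-numbered libraries correlated by -0.032 to 0.051 in their deviations from the group means. Libraries with other numbers correlated by -0.073 to 0.061. Such weak correlations cannot show that there was no pairing. Alternatives were pseudocounts of 1 and 0.01, no filter or a mean of 1 FPKM, TPM, median-ratio scaling, quantile normalization, assembled loci left out, 2 groups alone, a fit with no variance trend, a block for the replicate number, and each library left out in turn.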

Additional observations from a re-analysis of the deposited data

How the results depend on the processing

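RELB, NFKB2, NFKB1 and TNFAIP3 passed the FDR between the days of the knockdown in each of 20 alternatives, with limma adjusted p at most 0.00814. Genes past both thresholds numbered 2 with TPM and 1 to 2 over the leave-one-out fits, against 1. For day 7 against the control, 7 of the 10 passed the FDR with TPM, against 4. The median log2 fold change of all entries in that comparison was 0.18 with TPM, against 0.099. With a pseudocount of 1, 3 other pathway genes were lower past both thresholds, against 5, and entries past both thresholds fell from 2211 to 1255 (sh-Ptbp1-7d against sh-Ptbp1-3d) and from 2271 to 1269 (sh-Ptbp1-7d against sh-Luci-3d), while at 3 days they numbered 0 to 57 over the alternatives, against 2. The PTBP1 log2 fold change at 3 days was -0.85 with the 2 groups alone (adjusted p = 0.0519 in limma) and -0.85 with the replicate block (adjusted p = 0.0583 in limma), and -0.88 to -0.80 over the leave-one-out fits. The replicate block also ended the FDR call of RELA between the days of the knockdown (limma adjusted p = 0.0146). It ended that of NFKBIE at day 7 against the control (0.0122), where TNFAIP3 passed (0.00573). No other call of the 10 genes changed with the block. Replicate numbers are not known to pair the libraries. The median log2 fold change of all entries between the days of the knockdown was 0.09, against 0.20 with TPM, 0.031 with median-ratio scaling and -0.0087 with quantile normalization. The share of higher calls at day 7 against the control was 61.1%, against 49.3% with quantile normalization.

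Differences that changed sign did not pass the test in any alternative. Relative to sh-Luci-3d, TPM gave 0.017 for NFKBIA at day 7 and -0.0046 for NFKBIB at day 3, median-ratio scaling and quantile normalization gave -0.065 and -0.050 for NFKBIB at day 7, and quantile normalization gave -0.018 for BIRC3 at day 3. Between the days of the knockdown, TPM gave 0.016 for NFKBIA and 0.096 for NFKBIB. Over the leave-one-out fits at day 3, log2 fold changes ran from -0.0090 to 0.088 for NFKB1, -0.080 to 0.14 for NFKB2, -0.0097 to 0.26 for RELB, -0.021 to 0.085 for NFKBIA, -0.072 to 0.15 for NFKBIB, -0.047 to 0.12 for NFKBIE and -0.10 to 0.17 for BIRC3. At day 7 they ran from -0.106 to 0.00022 for NFKBIA and -0.077 to 0.15 for NFKBIB against sh-Luci-3d, and from -0.062 to 0.046 for NFKBIB against sh-Ptbp1-3d. BIRC3 was absent under the filter at a mean of 1 FPKM. The cause of these shifts was not tested. The FPKM values carry no read numbers, so counting error could not be separated from the spread between libraries.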
